A study of Mus musculus with 2 samples.

Results

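Pleiotrophin (Ptn), its relative midkine (Mdk) and 6 of their reported receptors were measured in posterior tissue of mouse embryos with reduced Cdx function. The receptors were the phosphatase Ptprz1, the kinase Alk and the syndecans Sdc1 to Sdc4. All 8 genes had a probe on the array, 9 probes in all, against 32914 gene names in total, and 7 of the 8 were among the 25998 genes detected. A gene counts as detected where the scanner software flagged one and the same genotype as well above background on each of the arrays. The members were taken by name, and the set was chosen by values measured on these arrays, since Ptn had already been seen among the largest increases. The values of the members are therefore a description and carry no test.

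The mutant RNA came from Cdx2+/-Cdx4-/- embryos, which keep 1 intact Cdx2 copy and lack Cdx4, and the RNA set against it came from wildtype embryos. Both were at the 13-somite stage, and posterior tissue, cut at one axial level set by the last somite boundary, was pooled from 7 embryos per genotype. The pools were hybridised together on 2 dual-colour oligonucleotide arrays, with the mutant RNA in Cy5 on array 1 and in Cy3 on array 2. The labels do not say whether both arrays used the same extracts. The arrays were taken as a technical repeat of 1 pool per genotype, so every SD below is the SD of the 2 arrays and no p-value between genotypes is given. Cdx4 had a normalized signal of 128 and 179 array units in the mutant pool, against 780.0 and 971 in the wildtype pool, a log2 ratio of -2.52 ± 0.12. Cdx2, of which the mutant keeps a copy, had -0.05 ± 0.09. In such pools, fewer cells of a type and less RNA per cell cannot be told apart. Among all detected genes, 55 were higher and 60 were lower by at least 1.5-fold on each array, and the counts were 27 and 16 when the arrays were median-centred in place of loess.

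Pleiotrophin and midkine are secreted growth factors that bind heparin and together form a small family. They attach to the sugar chains of proteoglycans on the cell surface. Syndecans carry mainly heparan sulfate chains, and Ptprz1 carries chondroitin sulfate. Binding of pleiotrophin to Ptprz1 is known to lower its phosphatase activity, which leaves substrates such as beta-catenin and Fyn more phosphorylated. Midkine was first found as a gene induced by retinoic acid in mouse embryonal carcinoma cells and is widely expressed in the mid-gestation mouse embryo.

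Ptn and Ptprz1 were the members with ratios above 0 on both arrays under each of the 7 ways of processing that used both arrays, and the bases just upstream of their transcription starts are shown for that reason. Both genes lie on chromosome 6. The sequences are those of RefSeq on GRCm38.p6, printed in the direction of transcription, and 6 of the 8 members had an entry. The 250 bases before the start were searched for TTTATG and TTTATT, words that resemble sites bound by Cdx proteins, on both strands, and capitals mark a match. The words differ in their last base only.
Ptn, chr6:36810180-36810429, minus strand: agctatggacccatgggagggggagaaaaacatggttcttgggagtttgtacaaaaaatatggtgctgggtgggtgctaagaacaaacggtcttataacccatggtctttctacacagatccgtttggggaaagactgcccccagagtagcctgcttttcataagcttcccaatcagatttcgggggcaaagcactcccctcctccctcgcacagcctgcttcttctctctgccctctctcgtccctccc
Ptprz1, chr6:22875252-22875501, plus strand: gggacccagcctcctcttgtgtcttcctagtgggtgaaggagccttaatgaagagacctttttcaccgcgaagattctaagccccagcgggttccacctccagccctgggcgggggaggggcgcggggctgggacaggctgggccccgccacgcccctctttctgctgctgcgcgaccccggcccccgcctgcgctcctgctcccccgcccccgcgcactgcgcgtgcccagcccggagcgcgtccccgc
Sdc1, the end of its 250 bases on chromosome 12, plus strand: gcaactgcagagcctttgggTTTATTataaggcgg
Neither word was present in the windows of Ptn or Ptprz1. Sdc1 was the 1 of the 6 members with a match, TTTATT, whose first base lay 15 bases before the start. At least 1 of the words was found in 25.5% of the 32851 upstream windows of the same length, TTTATG in 10.8% and TTTATT in 18.1%. The windows also differed in base composition. That of Ptn held 52.0% G and C with 5 CG pairs, against 71.6% and 22 for Ptprz1 and a median of 52.4% and 6 over all windows. The other members with an entry had between 65.2% (Alk) and 76.4% (Sdc3).

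Ptn was higher in the mutant pool and was the 1 of 7 detected members past the size rule, a ratio of at least 1.5-fold in the same direction on each array. No member was lower by that rule. Of all detected genes, 0.212% were higher and 0.231% were lower by it. The Ptn probe lies at chr6:36733971-36734030 in the coordinates of the files, which name no genome build. Its normalized signal was 2192 and 1801 array units in the mutant pool on arrays 1 and 2, against 749.8 and 642 in the wildtype pool. Both mutant values lay above both wildtype values. The log2 ratio was 1.55 on array 1 and 1.49 on array 2, a mean of 1.52 ± 0.04 or 2.86-fold. The 500 genes nearest in brightness had an SD between arrays of 0.15. By mean ratio Ptn stood 11th from the top among the 25998 genes. Its measured neighbours on chromosome 6 were taken as 4 on each side by the probe positions in the files, leaving out clone names. These 8, up to 1557 kb away, had mean log2 ratios between -0.06 and 0.09, and 0 of them passed the size rule.

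**Figure D1:**
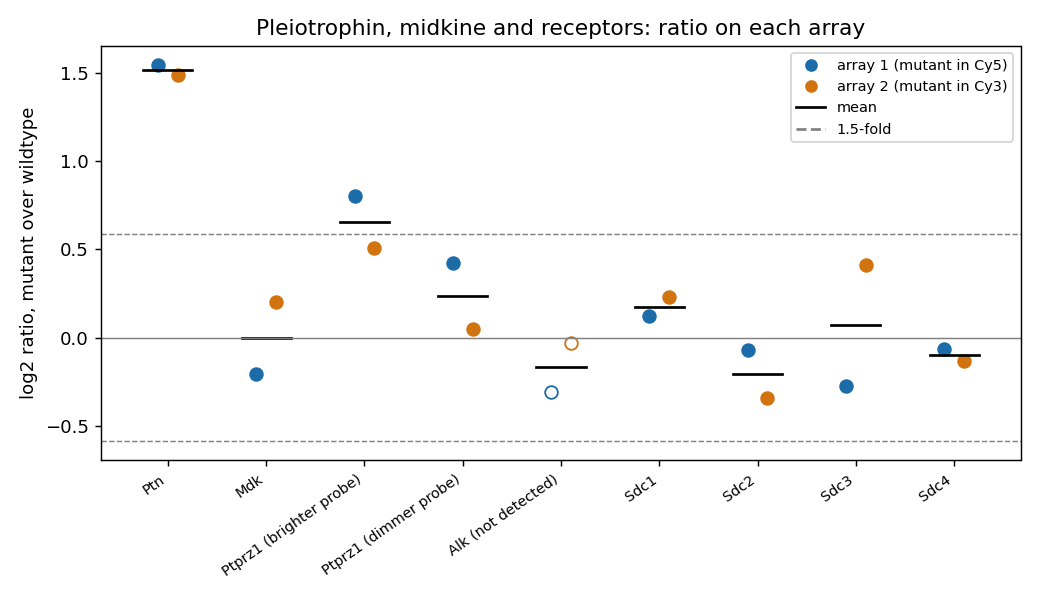
Log2 ratio of mutant over wildtype (vertical axis) for each probe of the members (horizontal axis), with blue points for array 1, orange points for array 2, black bars for their mean and open points for Alk, which was not detected. Ptn lies at 1.55 and 1.49, above the dashed 1.5-fold line on both arrays, and the brighter Ptprz1 probe lies on either side of that line.

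Mdk, the paralog, had no ratio that held its direction. Its normalized signal was 11833 and 14884 array units in the mutant pool, against 13658 and 12928 in the wildtype pool, and the ranges of the genotypes overlapped. The log2 ratio was -0.21 on array 1 and 0.20 on array 2, a mean of -0.0018 ± 0.29. On both arrays the Cy3 channel was the brighter one after loess normalization, whichever genotype it carried. With median centring in place of loess the ratios of Mdk were 0.37 and -0.60, so Cy5 was then the brighter channel on both arrays. The probe was well above background and unsaturated in both channels of both arrays, so neither limit applies to it. Set side by side, the log2 ratio of Ptn exceeded that of Mdk by 1.75 on array 1 and 1.28 on array 2, a mean of 1.52 ± 0.33. The 8 measured neighbours of Mdk on chromosome 2, all within 439 kb, had ratios between -0.18 and 0.16.

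**Figure D2:**
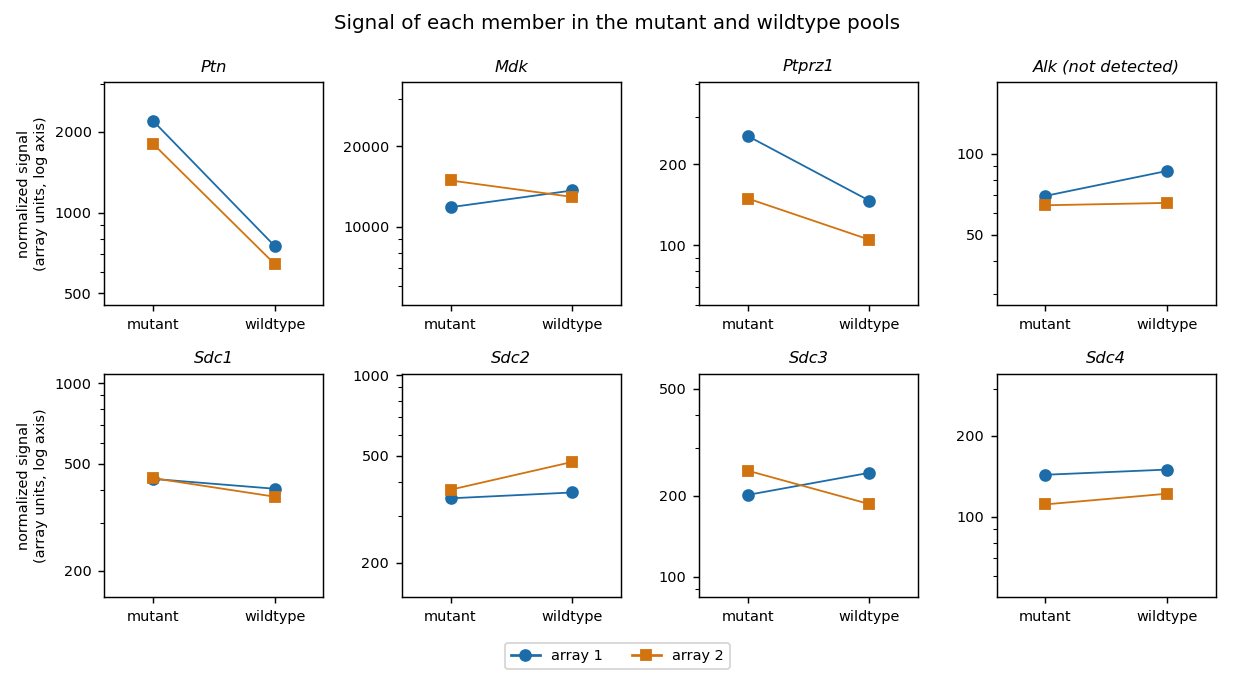
Normalized signal in array units (vertical axes, logarithmic, each spanning the same fold range) in the mutant and wildtype pools for each member, with a line joining the genotypes on array 1 (blue circles) and array 2 (orange squares). The lines of Ptn, Ptprz1 and Sdc1 slope down toward wildtype on both arrays. Those of Mdk and Sdc3 slope in opposite directions and cross, and those of Sdc1 cross as well.

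Ptprz1, the phosphatase receptor, had the next highest ratio and fell just short of the size rule. It has 2 probes, whose positions in the coordinates of the files are 48231 bases apart on chromosome 6. The files name no genome build, so these positions cannot be set against the GRCm38.p6 positions of the upstream windows. The brighter probe, at chr6:22881387-22881446, had a normalized signal of 255 and 149 array units in the mutant pool, against 146 and 105 in the wildtype pool. The genotypes did not overlap, although the lower mutant value was close to the higher wildtype value. The log2 ratio was 0.80 on array 1, past the 1.5-fold threshold of 0.585, and 0.51 on array 2, short of it. The mean was 0.66 ± 0.21, or 1.57-fold, 59th from the top of all detected genes. The log2 ratio of Ptn was higher by 0.75 and 0.98 on the arrays.

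The dimmer Ptprz1 probe, at chr6:22833156-22833215, gave less. Its signal was 168 and 104 array units in the mutant pool, against 125 and 100.5 in the wildtype pool, and its log2 ratios were 0.43 and 0.05, a mean of 0.24 ± 0.26. Genes as bright as this probe had an SD between arrays of 0.19, so its ratio on array 2 is within that spread. Both probes were well above background in every channel but dim. The raw brightness of the brighter probe on array 2 was 174 in the mutant pool (Cy3) and 153 in the wildtype pool (Cy5), where the median of the negative control spots was 113 in Cy3 and 92.2 in Cy5.

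Whether Ptprz1 passed depended on the processing. With the log ratio that the scanner software wrote into the deposited files, the brighter probe had log2 ratios of 1.16 and 1.13 and passed, as did 0.642% of all detected genes in that direction. The software's own error for those ratios was 0.26 and 0.69 on the log2 scale. With a normexp offset of 16 in place of 50 it had 0.99 and 0.71 and also passed, against 0.308% of all genes. Without background subtraction it had 0.64 and 0.37 and did not. Ptn passed in each of these settings, with a mean between 1.46 and 1.62. Of the measured neighbours of Ptprz1, Cped1 had -0.36 ± 0.01 and Aass -0.31 ± 0.09, the other 6 of 8 lay between -0.09 and 0.12, and 0 passed the size rule.

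**Figure D3:**
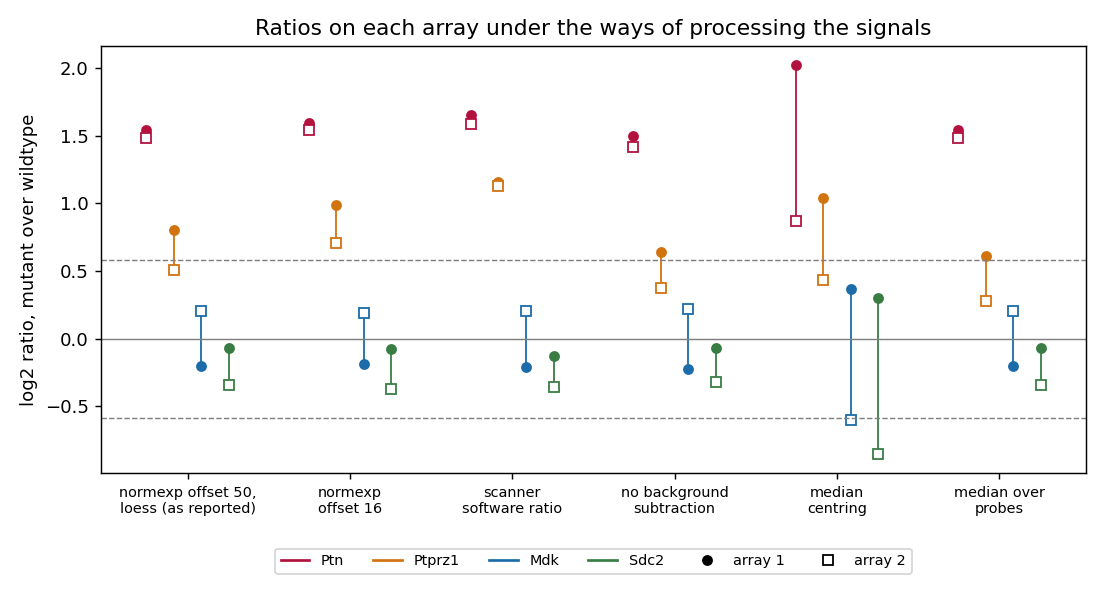
Log2 ratio of mutant over wildtype (vertical axis) for Ptn, Ptprz1, Mdk and Sdc2 on array 1 (filled circles) and array 2 (open squares) under each way of processing the signals (horizontal axis), with dashed lines at 1.5-fold. Ptn stays above the line throughout, Ptprz1 is above it on both arrays with an offset of 16 and with the software's ratio, and median centring spreads the arrays apart.

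The syndecans are transmembrane proteoglycans, and Sdc3 is known as a pleiotrophin receptor in neurite outgrowth from work in the rat. None of the 4 passed the size rule. Sdc1, the syndecan of many epithelia, had a signal of 439 and 442 array units in the mutant pool, against 404 and 377 in the wildtype pool. Its log2 ratio was 0.12 and 0.23, a mean of 0.18 ± 0.08, and the genotypes did not overlap. Sdc2, found mainly in mesenchymal cells, had 348 and 374 in the mutant pool, against 365 and 475 in the wildtype pool. Its ratio was -0.07 and -0.34, a mean of -0.21 ± 0.19, and the genotypes overlapped across arrays.

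Sdc3 had 201 and 248 array units in the mutant pool, against 244 and 186 in the wildtype pool. Its log2 ratio was -0.27 on array 1 and 0.41 on array 2, a mean of 0.07 ± 0.49. Here too the Cy3 channel was the brighter one on both arrays after loess. With median centring in place of loess the ratios of Sdc3 were 0.01 and 0.07. Sdc4, a widely expressed syndecan of focal adhesions, had 143 and 111 in the mutant pool, against 149.8 and 122 in the wildtype pool. Its ratio was -0.06 and -0.13, a mean of -0.10 ± 0.05, and the genotypes overlapped across arrays. With median centring in place of loess the ratios of Sdc1, Sdc2 and Sdc4 had opposite signs on the arrays. The agreement of their arrays in direction therefore rests on the loess step. Their means kept their signs under median centring, at 0.12, -0.28 and -0.04.

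Alk, a receptor tyrosine kinase best known from neurons and from fusions in lymphoma, was not detected. The software flagged it as well above background for wildtype on array 1 alone, and for the mutant on neither array. The signal was 69.7 and 64.4 array units in the mutant pool, against 86.4 and 65.7 in the wildtype pool. Its mean log2 ratio was -0.17 ± 0.20, no larger than its own spread, and no fold is read from it. The deposited ratios of the software had errors of 1.28 and 6.01 on the log2 scale for this probe, so they are not read.

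In order of mean log2 ratio the detected members were Ptn at 1.52, Ptprz1 at 0.66, Sdc1 at 0.18, Sdc3 at 0.07, Mdk at -0.0018, Sdc4 at -0.10 and Sdc2 at -0.21. The arrays of Ptn lay above those of Ptprz1, and those of Ptprz1 above those of Sdc1. From Sdc1 downward, each gene's arrays overlapped those of the next in the order. The median of the 7 was 0.07, against 0.0001 for all detected genes, and it was -0.06 on array 1 and 0.23 on array 2. On both arrays 3 members lay above 0 and 2 below 0, and the other 2 changed sign. Of all 25998 detected genes, 6064 lay above 0 on both arrays, 6343 lay below 0 and 13591 changed sign.

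**Figure D4:**
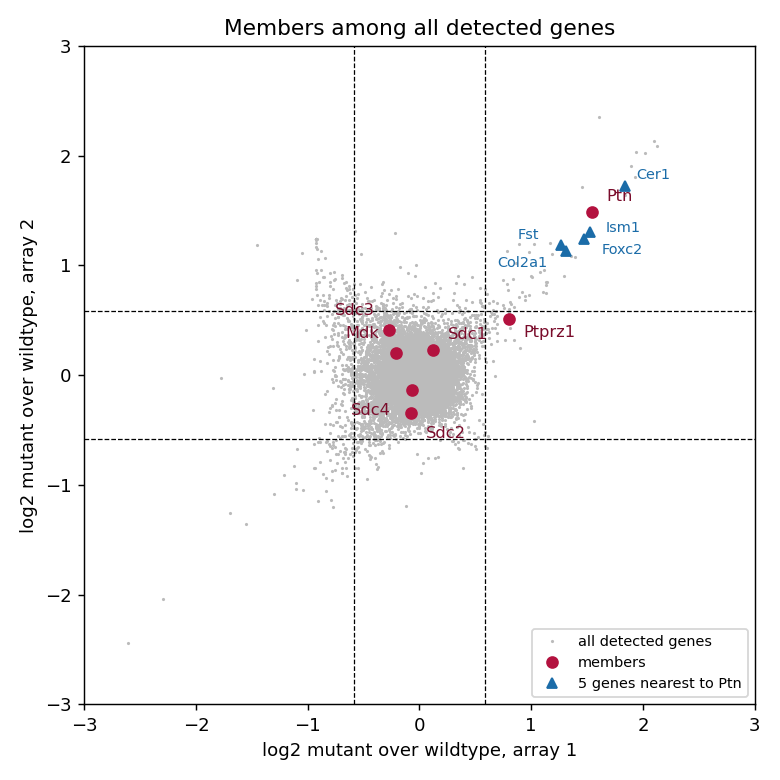
Log2 ratio of mutant over wildtype on array 1 (horizontal axis) against array 2 (vertical axis) for the 25998 detected genes (grey), the 7 detected members (red) and the 5 genes nearest to Ptn (blue triangles), with dashed lines at 1.5-fold. Ptn lies far out along the diagonal, Ptprz1 next to the upper right corner of the dashed square, and the other members inside it.

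The genes whose pair of ratios lay nearest to that of Ptn, by Euclidean distance over the 2 arrays and leaving out clone names, were Ism1, Foxc2, Cer1, Fst and Col2a1. Ism1 (isthmin, a secreted protein) had a mean of 1.41 ± 0.15, at a distance of 0.18. Foxc2, a forkhead factor of the paraxial mesoderm, had 1.47 and 1.24 (distance 0.26), and Cer1 (cerberus, which blocks Nodal and BMP ligands) had 1.84 and 1.72 (0.38). Fst, the activin antagonist follistatin, followed at 0.41. Col2a1, the collagen of cartilage and notochord, stood at 0.43. With 2 arrays of the same pools, likeness here means a similar size of difference and nothing more.

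Around the members, no detected gene of the pathway lists passed the size rule. At the shares of all genes that did, 0.212% higher and 0.231% lower, lists of this size would hold hardly any, so the counts of 0 below are near the background and are no result about these genes. Of 18 detected other receptors and binding partners of pleiotrophin or midkine, such as Lrp1, the integrins, nucleolin and Notch2, 0 were higher and 0 lower. Their median was 0.01, with a range from -0.39 to 0.17, against 0.0001 for all detected genes. The lowest was Vcan (versican), a chondroitin sulfate proteoglycan of the matrix that binds midkine, at -0.31 and -0.47, a mean of -0.39 ± 0.11. Itgav, an integrin subunit reported as part of a pleiotrophin receptor, had -0.22 ± 0.25, no larger than its own spread. Lrp1, an endocytic receptor that binds midkine, had 0.17 ± 0.04.

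Among 7 detected receptor phosphatases related to Ptprz1, 0 passed, at a median of -0.01. Ptprg, its closest relative, had 0.34 and 0.26, a mean of 0.30 ± 0.06 or 1.23-fold, and Ptprk had 0.16 ± 0.03. Of 14 detected substrates and partners of the phosphatase and of Alk, 0 passed, at a median of -0.02. Nrcam, a neural adhesion molecule that binds the ectodomain of Ptprz1, was the highest at 0.37 ± 0.11, and Fyn, a Src family kinase among its substrates, the lowest at -0.28 ± 0.23. Ctnnb1, which encodes beta-catenin, had 0.26 ± 0.11. These are transcript ratios and say nothing of phosphorylation.

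The proteoglycans and the enzymes that build their chains were counted likewise. Of 11 detected cytoplasmic partners and sheddases of syndecans, 0 passed, at a median of 0.05, with Cask, a scaffold that binds syndecan tails, at 0.24 ± 0.27 and the gelatinase Mmp2 at 0.14 ± 0.23. Of 10 detected glypicans and other heparan sulfate proteoglycans, 0 passed, at a median of 0.02. Gpc3, a glypican attached to the membrane by a lipid anchor, came closest with 0.60 and 0.42, a mean of 0.51 ± 0.13 or 1.42-fold, past the threshold on array 1 alone. Agrn (agrin) had 0.33 ± 0.01. Of 32 detected genes of heparan and chondroitin sulfate synthesis, 0 passed, at a median of 0.01. Sulf1, which removes sulfate groups from heparan sulfate outside the cell, had 0.35 ± 0.15, and Extl2, a glycosyltransferase that limits chain synthesis, had -0.36 ± 0.11. Alkal1 and Alkal2, listed as other Alk ligands, had no probe under those names and so were not analysed here.

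**Figure D5:**
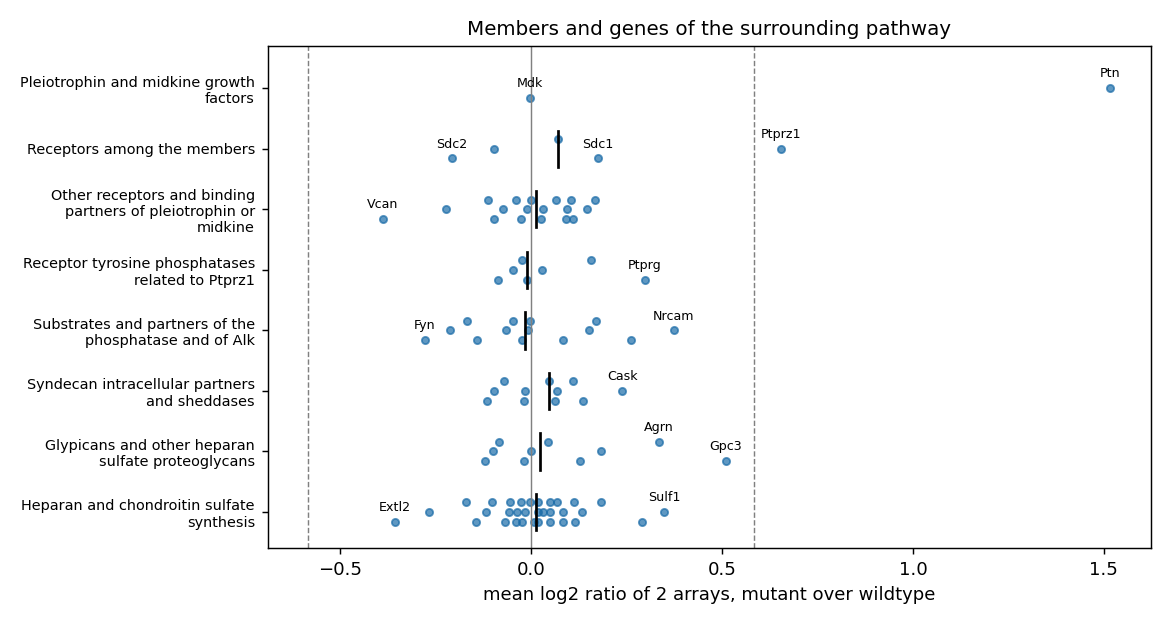
Mean log2 ratio over the 2 arrays (horizontal axis) of each detected gene in the lists (rows), with a black bar at the median of lists of 5 or more genes and dashed lines at 1.5-fold. Ptn and the brighter Ptprz1 probe are the points to the right of the dashed line, Ptn on both arrays and Ptprz1 by its mean only, and Gpc3 lies just short of it.

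Ptn is expressed by several tissues of the embryo, and markers of tissues that the dissected region could hold also differed between the pools. The marker lists were chosen with earlier results of these data known. Their counts, here and in the next paragraph, are therefore a description and carry no test. Of 9 detected markers of somites and paraxial mesoderm, 4 were higher (Meox1, Tcf15, Foxc2 and Foxc1) and 0 lower, against 0.212% and 0.231% of all genes, at a list median of 0.30 and with a summed signal of 5755 and 5602 array units in the mutant pool, against 3512 and 3632 in the wildtype pool. Pax1 and Uncx of that list were not detected, and Pax3 had 0.02 ± 0.04. Of 10 presomitic mesoderm markers, 3 were higher (Ripply2, Pcdh8 and Dll1). The median of that list was 0.10, and 6 of the 10 lay above 0 on both arrays. Dll3 at 0.34 ± 0.11, Lfng at 0.12 ± 0.15 and Rspo3 at 0.08 ± 0.04 did not pass. Tbx6 at 0.06 ± 0.16, Hes7 at 0.02 ± 0.23, Mesp2 at -0.02 ± 0.02 and Msgn1 at -0.12 ± 0.03 did not pass either. The list had sums of 9823 and 9840 in the mutant pool, against 7920.2 and 7444 in the wildtype pool. Of 9 detected neural tube markers, 1 was higher, Sox2 at 0.81 ± 0.08, and Sox3 and Olig2 were not detected. Their median was 0.06, and 4 lay above 0 on both arrays: Sox2, Irx3 at 0.46 ± 0.25, Hes5 at 0.38 ± 0.08 and Sox1 at 0.37 ± 0.47. Below 0 on both arrays were 3: Fabp7 at -0.36 ± 0.07, Nkx6-1 at -0.09 ± 0.11 and Pax6 at -0.07 ± 0.04. The neural sums were 3403 and 3899.8 in the mutant pool, against 3124 and 3395 in the wildtype pool, with the lower mutant sum just above the higher wildtype sum.

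Gut endoderm markers had 3 of 10 higher (Trh, Nepn and Spink1), at a median of 0.17 and with sums of 3892 and 3805 in the mutant pool, against 2912 and 2666 in the wildtype pool. On array 1 Trh, Nepn and Spink1 held 513, 470 and 356 of the mutant sum, against 168, 123 and 169 of the wildtype sum. The 7 that did not pass lay between -0.04 (Sox17) and 0.33 (Foxa2), with Foxa1 at 0.03 ± 0.08 and Foxa3 at -0.04 ± 0.05. Of 9 detected endothelial markers, 2 were lower (Cldn5 and Sox18) and all 9 had negative ratios on each array. Of all detected genes, 0.212% were higher and 0.231% were lower by the size rule, and 6343 of 25998 lay below 0 on both arrays. The endothelial median was -0.37, with sums of 2832 and 2541 in the mutant pool, against 4123 and 3995 in the wildtype pool. Among the primitive blood, notochord and floor plate, surface ectoderm, and lateral plate and intermediate mesoderm lists, 0 of 25 detected genes passed, near the shares of all genes. Their medians were -0.10, -0.08, 0.16 and 0.01 in that order. The largest mean ratios in size were Alas2 at -0.23 ± 0.09 and Hbb-y at -0.18 ± 0.21 for blood. They were Wnt6 at 0.53 ± 0.02 and Trp63 at 0.26 ± 0.03 for surface ectoderm, and Lhx1 at 0.49 ± 0.73 and Hand2 at -0.39 ± 0.08 for lateral plate and intermediate mesoderm. For notochord and floor plate they were T (brachyury) at -0.49 ± 0.03 and Krt8 at -0.23 ± 0.18. The other detected genes of that list were Chrd at 0.03 ± 0.08, Shh at 0.02 ± 0.12 and Foxj1 at -0.08 ± 0.05. The part of these tissues in the values of Ptn and Ptprz1 was not tested.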

How the data were processed

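RNA pooled by genotype was measured on 2 dual-colour arrays in a dye swap, per the labels, and was taken as 1 pool per genotype. The deposited intensity values are mean spot brightness in Cy3 and Cy5 and the median local background, uncorrected, per the file headers. Per the file headers, the scanner software made the deposited log10 ratio, and its error, with spatial detrending followed by a LOWESS correction between dyes. That software was Agilent Feature Extraction, version 9.5.3 per the submitters' processing notes and 7.5.1 per the file headers. No genome build is named in those sources. Other deposited columns used are the software's flags.

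Intensities were background-corrected with limma 3.58.1 in R 4.3.3 (normexp, offset 50, all 43430 spots) and normalized by loess within each array, with control spots at weight 0. Non-uniform spots, as the software marked them, were omitted (205 and 90 gene spots). The labelled dyes gave the direction, mutant over wildtype. Normalized signals per genotype are the same values after Aquantile normalization between arrays and include the offset. The detected probe of highest mean brightness stood for a gene. Of 41013 probes, 19780 were named by accession, 3620 by current symbol and 2908 by synonym through a RefSeq table of GRCm38.p6, 211 matched several genes and were left out, and 14494 kept the name in the files. Well above background were 79.8% and 77.4% of gene spots in Cy3 and 82.5% and 80.6% in Cy5 on arrays 1 and 2, and the pooled SD of a gene's ratio between arrays was 0.19. The number of arrays limits the precision. An offset shrinks ratios of dim genes.

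The members and the 18 lists were chosen with earlier results of these data known. Genes named are the members, Cdx4 and Cdx2, list members past the size rule or else the largest 2 by absolute mean ratio, and the 6 genes nearest to Ptn, of which 1 is not reported here. Ctnnb1, Lrp1, Pax3, Tbx6, Hes7, Mesp2, Msgn1, Fabp7, Nkx6-1, Pax6, Foxa1, Foxa2, Foxa3, Sox17, Shh, Chrd, Foxj1, Cped1 and Aass fall outside that rule. So do Irx3, Hes5, Sox1, Dll3, Lfng and Rspo3. All of these were chosen with their values known. Steps were tested on simulated data. Alternatives changed the background, normalization, ratio, probe rule, detection filter, arrays, threshold and call rule.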

Additional observations from a re-analysis of the deposited data

How the results depend on the processing

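No paired test between genotypes was possible with 1 pool per genotype. Both pools share every array, so each ratio is itself a within-array pair. Ptn passed the size rule under each of the 11 alternatives. The count of members past it was 2 in place of 1, Ptprz1 being added, with an offset of 16, the scanner software's ratio, 1.3-fold on each array or the mean of both arrays; on single arrays it ranged from 1 to 2. The difference between Ptn and Mdk lay between 1.46 and 1.62 under the 6 alternatives run for it with both arrays, and was 1.28 and 1.75 on single arrays. The count of all genes, 55 higher and 60 lower, moved more. Higher and lower counts were 27 and 16 under median centring, 167 and 189 by the ratio of the software, 140 and 195 at 1.3-fold, and 20 and 7 at 2-fold. Lower counts were 91 with an offset of 16, 38 without background subtraction and 95 by the mean of both arrays. On single arrays, where dye effects remain, the higher count lay between 93 and 320 and the lower count between 127 and 466. The cause of these changes was not tested. By the median over its probes Ptprz1 had 0.45. Signal over background limits Ptprz1, Sdc4 and Alk most.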
